A study of Artemisia annua with 12 samples.

Results

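The 48 genes described here stood higher at 2 h and higher again at 4 h of supplementary UV-B light in the leaves of Artemisia annua, the plant that yields the antimalarial artemisinin. They were picked by their measured values out of 63226 identifiers in the deposited table. With the mean of log2(value + 1) over the 3 libraries of a harvest as the level, a gene was kept if its level was at least 1 at 0 h, at least 1 higher at 2 h than at 0 h, at least 1 higher at 4 h than at 2 h, and at least 1 higher at 6 h than at 2 h. A difference of 1 on this scale is a 2-fold change of value + 1. All steps from 0 to 2 h, from 2 to 4 h and from 2 to 6 h are therefore given as descriptions, without a test, and support nothing by themselves. The difference between 6 h and 4 h was not itself part of the rule and was tested. The rule still bounds it, since no member could fall by more than its second step minus 1.

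The plants were wild-type seedlings of the high-artemisinin cultivar Huhao 1, 6 weeks old, grown with 16 h of light and 8 h of dark and placed under extra narrowband UV-B lamps at 1.5 µmol per m2 and second. The harvests UV0, UV2, UV4 and UV6 are the most recently expanded leaves after 0, 2, 4 and 6 h of this light, with 3 libraries each. Each library holds leaves of 3 seedlings mixed together, so plants within a library cannot be told apart, and p-values measure the spread between such mixes. The labels give no seedlings kept without the lamps to 2, 4 or 6 h, and clock times of sampling are not stated here. If exposure began at the same hour for all, the exposed harvests differ from UV0 in hour of sampling too. UV-B and time of day therefore cannot be told apart.

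In plants, UV-B is perceived by the photoreceptor UVR8, known best from Arabidopsis, which passes the signal through the ubiquitin ligase COP1 to the transcription factor HY5. The transcripts that follow are known to include those of flavonoid sunscreens, of DNA photolyases and of the proteins that damp the signal again. A transcript's level reflects both its synthesis and its decay, and a level measured in whole leaves pools all their cell types. Fewer cells of a type and less RNA per cell cannot be told apart in such leaves. Identifiers come without gene names in these data, so the role of each member is not given, no pathway list could be counted and the leaf label could not be compared with marker genes. Members are called by their rank in the log2 rise from 0 to 6 h, 1 being the largest, and only 4 identifiers are printed.

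The values are the authors' normalised signal, whose unit the header does not name and whose read depth is unknown. Library totals lay between 851404 and 868133. Genes were tested if 3 or more libraries had them at 1 or above, which 25841 did, and all 48 members were among these. In 6 members fewer than 3 of the 0 h libraries stood at 1 or above, and these passed the filter only with their later harvests. The median tested gene moved by 0.13 from 0 to 2 h and by 0.20 from 0 to 6 h on the log2(value + 1) scale, against which the members' steps should be read.

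The 48 genes began at modest levels and ended among the more abundant transcripts. Their mean values ran from 1.02 to 84.6 at 0 h, with a median of 4.66, and 31 of them stood under 10. The median member stood at 23.8 at 2 h, with 74.1 after 4 h and 98.1 after 6 h. No member reached a mean of 100 at 0 h, whereas 6 did at 2 h, followed by 21 at 4 h and 24 by the last harvest. Ranked by level among the tested genes, the median member moved from percentile 47.1 at 0 h to 82.2 at 2 h, then to 93.7 at 4 h, and lay at 95.6 after 6 h. These shifts follow from the rule and are not a separate finding.

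**Figure D1:**
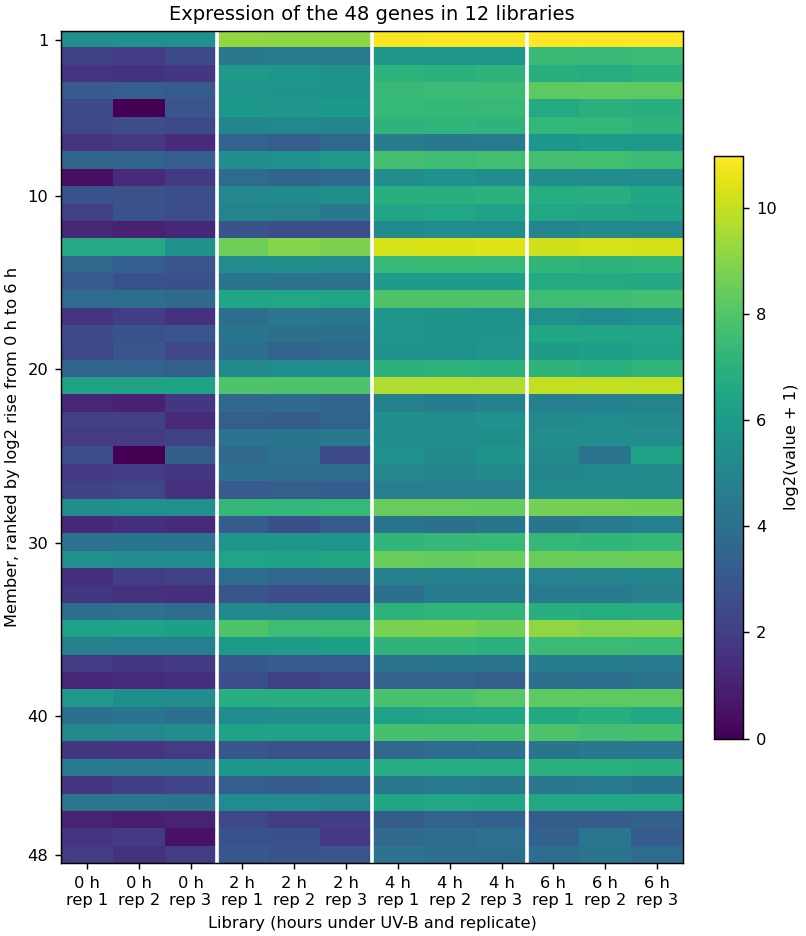
Colour gives log2(value + 1) of each member (rows, ranked by the log2 rise from 0 to 6 h) in each of the 12 libraries (columns, 3 per harvest). Levels step up at 2 h and again at 4 h, while the 4 h and 6 h columns look alike in most rows; ranks 5 and 25 show a library at 0 h listed at 0.

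The first step had a median of 1.58 on the log2(value + 1) scale and a range of 1.01 to 4.12, and the second a median of 1.48 and a range of 1.01 to 2.60. Differences of at least 1 were measured in 10.8% of all tested genes between 0 and 2 h, in 6.07% between 2 and 4 h and in 5.95% between 2 and 6 h. As ratios of mean values, without a pseudocount, the median member was 3.41-fold above 0 h at 2 h, 2.90-fold above 2 h at 4 h and 13.1-fold above 0 h at 6 h. The ratio of 6 h to 0 h ran from 5.09 to 53.7, was at least 10 in 30 members and at least 20 in 9. The first step was the larger one in 31 members and the second in 17. A first step of at least 2 was measured in 17 members, a second step of at least 2 in 7, and both in 3. Across the 48 members the 2 steps correlated weakly (Pearson r = 0.15, Spearman rho = 0.24), a description over genes that share the 2 h libraries in both measures.

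Rank 1, CTI12_AA197370, had the largest rise and also the highest mean over the 12 libraries. Its values were 43.24, 45.82 and 45.19 at 0 h, 585.30, 559.88 and 557.95 at 2 h, 1851.44, 1907.03 and 1936.64 at 4 h, and 1963.25, 2015.28 and 1989.40 at 6 h. No libraries of neighbouring harvests overlapped, and each harvest spread by no more than 3.01% (coefficient of variation, n = 3). In mean value the transcript was 12.7-fold higher at 2 h than at 0 h, and 44.5-fold higher at 6 h. It stood at place 2258 by mean value among the tested genes at 0 h and at place 46 at 6 h. The difference between 6 and 4 h, 0.07 ± 0.029 (SE) on the log2(value + 1) scale, did not pass the test (limma adjusted p = 0.189).

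CTI12_AA270950, rank 13 by rise, had the second-highest mean and a less even start. Its 0 h libraries stood at 103.22, 102.21 and 48.34, and the third is less than 0.5 times each of the others. At 2 h the values were 370.98, 512.54 and 453.79, all above those at 0 h, and at 4 h they were 1289.33, 1324.09 and 1382.84. The 6 h libraries, at 1166.78, 1277.24 and 1239.53, all lay below those at 4 h. That difference was -0.12 ± 0.247 (SE) on the log2(value + 1) scale and did not pass the test (limma adjusted p = 0.84). The standard error comes from all 4 harvests together, the uneven 0 h libraries included.

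Some members owed most of their course to the first step. Rank 3 stood at 2.24, 2.01 and 2.32 at 0 h and at 59.28, 55.74 and 48.53 at 2 h, a 24.9-fold difference in mean value. Its second step was 2.49-fold, to 137.71, 129.49 and 140.65 at 4 h, and at 6 h it stood at 116.00, 108.93 and 127.62. By 2 h this member had covered 79.0% of its log2 rise to 6 h. Over all members that share had a median of 49.7% and ran from 32.8% to 79.5%, the highest being that of rank 5.

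Others were carried by the second step. Rank 12 had the largest of these, from 6.06, 5.27 and 5.07 at 2 h to 36.54, 38.24 and 39.27 at 4 h, 6.95-fold in mean value. It had stood at 1.25, 1.01 and 1.31 at 0 h, so its first step was 4.59-fold. Rank 31 sat just above the rule's minimum for the first step, with 45.07, 38.03 and 41.21 at 0 h and 84.20, 80.37 and 87.99 at 2 h. It then stood at 348.46, 334.65 and 350.37 at 4 h, 4.09-fold above 2 h. Rank 6 combined both: its mean of 4.62 ± 0.438 (SD, n = 3) at 0 h became 32.8 ± 0.869 at 2 h and 141.7 ± 4.65 at 4 h, with steps of 2.59 and 2.08 on the log2(value + 1) scale.

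**Figure D2:**
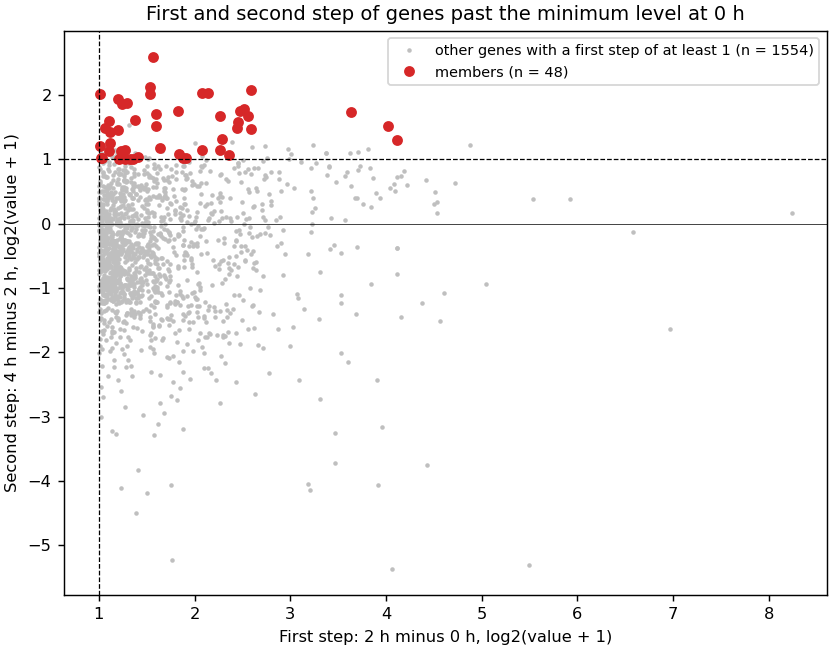
Each point is a gene with a level of at least 1 at 0 h and a first step of at least 1; the x axis gives the first step and the y axis the second, both as differences of log2(value + 1), and dashed lines mark the minimum of 1. The 48 members (red) fill the corner above both lines, while most of the 1554 other genes (grey) lie lower; grey points above the line missed the minimum at 6 h.

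Most genes with a first step of at least 1 did not make a second one of this size. Of 1602 genes with a level of at least 1 at 0 h and a first step of at least 1, the 48 members make up 3.00%. Of all tested genes, 6.07% were at least 1 higher at 4 h than at 2 h, and 5.95% at 6 h than at 2 h, each taken singly. The 3.00% asks for both differences at once, so it cannot be set against either of these shares. Whether a second step was rarer after a first one than in other genes was not tested. For 1025 the level stayed within 1 of that at 2 h at both later harvests, and for 292 it was lower by 1 or more at both. A further 35 met the second step at 4 h but not at 6 h, and 49 at 6 h but not at 4 h. Seen from the other side, 773 genes with a level of at least 1 at 0 h were at least 1 higher at both 4 and 6 h than at 2 h. In 321 of these 773 genes the level at 2 h was lower than at 0 h by 1 or more, in 273 it was lower by less, in 131 it was higher by less than 1, and 48 are the members. Both differences use the 2 h libraries, so a low 2 h level favours the second step and hinders the first. Another 39 genes met the 3 differences but had a level under 1 at 0 h.

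Genes near the limits show how fine the choice is. The 3 members closest to a limit had smallest differences of 1.006, 1.008 and 1.008, and the 3 genes that came closest without entering had 0.9997, 0.979 and 0.974. In all, 18 members lay within 0.1 of a limit and 26 other genes lay within 0.1 outside one.

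Libraries within a harvest lay close for most members. The coefficient of variation over 3 libraries had a median of 13.6% before exposure, and medians of 7.95%, 4.01% and 4.97% at the 3 later harvests in turn. For all tested genes within the members' range of means the medians were 9.46%, 8.23%, 5.06% and 5.43%. Every 2 h library lay above every 0 h library in 46 of the 48 members, as in 39.3% of all tested genes, and every 4 h library above every 2 h library in all 48, against 35.2%. For 6 h over 2 h the members again numbered 48, against 33.6%. Since the rule asked for these differences, nothing is read from the counts.

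In 21 of the 48 members the coefficient of variation passed 20% in some harvest, and in 18 it did so at 0 h. A few members were more uneven still. Rank 25 was listed at 4.97, 0 and 8.43 at 0 h, 12.32, 16.81 and 4.81 at 2 h, 46.52, 36.19 and 50.10 at 4 h, and 35.21, 17.80 and 80.60 at 6 h. Its 0 h and 2 h libraries overlapped, and its coefficient of variation reached 94.9% at 0 h and 72.8% at 6 h. Rank 47 also overlapped, with 2.23, 2.61 and 0.47 at 0 h against 5.88, 5.44 and 2.54 at 2 h. Rank 5 was listed at 4.59, 0 and 6.49 at 0 h, while its 2 h libraries, at 56.66, 52.68 and 56.27, stood far above. Together with rank 9, at 0.37, 1.57 and 2.69 at 0 h, these are the 4 members whose coefficient of variation passed 50% in some harvest.

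The same steps were looked for in libraries that had no part in the choice. When the rule was applied without the libraries numbered 1, it kept 54 genes, of which 32 (59.3%) had all 3 differences of at least 1 in the left-out libraries, taken singly. Without the libraries numbered 2 it kept 41 genes and 29 (70.7%) did so, and without those numbered 3 it kept 42 and 30 (71.4%) did so. All 3 differences were above 0 in 53 of 54, 39 of 41 and 41 of 42 genes. The left-out first step had a median of 1.64 to 1.80 and the left-out second step one of 1.46 to 1.54 on the log2(value + 1) scale. Replicate numbers are only names here and join no plants across harvests. The 3 sets overlap, with 43, 36 and 35 of their genes among the 48 members. The share of all tested genes with these differences in the same single libraries is not given here.

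**Figure D3:**
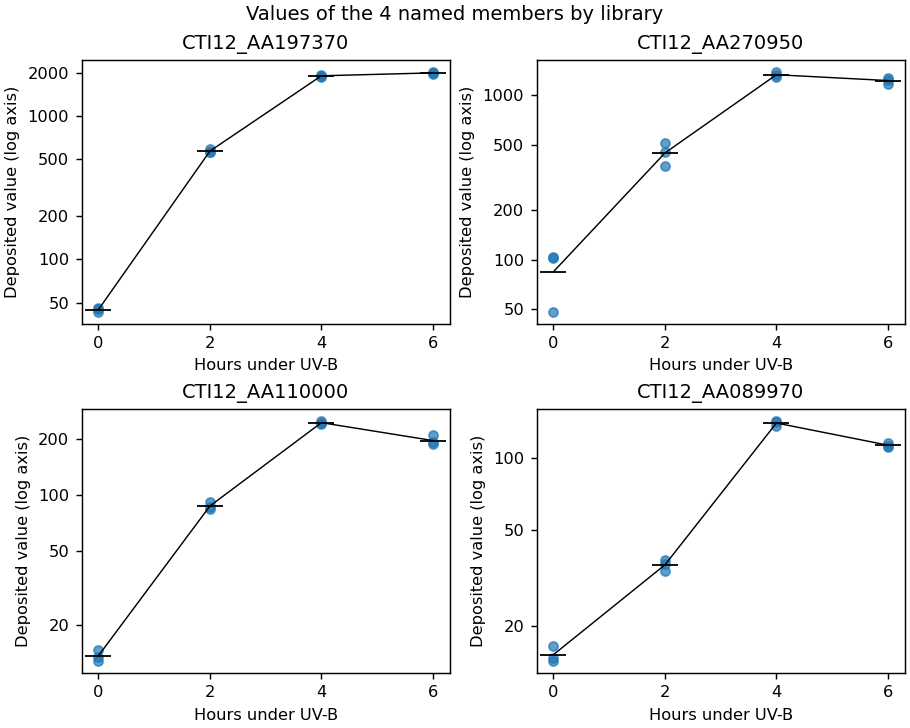
Points give the deposited value in each of 3 libraries at each harvest (y, log axis) against hours under UV-B (x) for the 4 named members; horizontal bars joined by a line are means. All 4 stand higher at 4 h than at 2 h; CTI12_AA197370 then stands at 1989 against 1898, while CTI12_AA110000 and CTI12_AA089970 are lower at 6 h than at 4 h.

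After 4 h most members showed no called difference, and a part of them moved further. Between 4 and 6 h, 14 of the 48 members (29.2%) rose further, where 4.44% of all tested genes were called higher in this comparison; 2 (4.17%) fell, where 5.47% of all genes were called lower; and 32 did not pass the test (limma, Benjamini-Hochberg adjusted p under 0.05 over all tested genes). At an unadjusted limma p under 0.05 the members called in either direction number 24. The share of all tested genes at that threshold is not given here, so nothing is read from this count. The median difference was 0.06 on the log2(value + 1) scale, against -0.02 over all tested genes. Of the 1554 other genes with a first step of at least 1, 13.1% were called higher and 13.9% lower, with a median difference of -0.03. The gap between the members and those genes was not tested. The rule sets the same minimum on 4 h and on 6 h against 2 h, and none directly on their difference. It still shapes that difference, since a member with a second step near 1 could hardly fall. Of the genes with a first step, 35 met the minimum at 4 h only and 49 at 6 h only, and both sets were left out. The shares called higher and lower are therefore not independent of the choice. Nor were they set against tested genes of like level. The median member lay at percentile 93.7 of level at 4 h, and smaller differences can pass where libraries lie close.

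Rank 2 rose the most between 4 and 6 h and made a further step of similar size. It stood at 3.49, 2.81 and 4.53 at 0 h, 20.10, 21.36 and 22.45 at 2 h, 57.39, 51.92 and 55.42 at 4 h, and 170.38, 163.83 and 175.31 at 6 h. The last interval was its 3.09-fold change in mean value, with a log2 difference of 1.61 ± 0.108 (SE; limma adjusted p = 4.93e-06). Rank 7 took the same course at lower levels, from 23.25, 20.34 and 21.13 at 4 h to 53.82, 58.32 and 57.79 at 6 h (log2 difference 1.35 ± 0.125 SE, limma adjusted p = 5.14e-05). At 4 h it had covered 68.1% of its rise, the lowest share of all members, where the median was 98.6%. These 2 are the only members that rose by at least 1 on the log2 scale in this interval, as 0.909% of all tested genes did by size alone.

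Smaller further rises filled the rest of the 14, whose differences ran from 0.16 to 1.61 on the log2(value + 1) scale with a median of 0.51. Rank 4 went from 171.28, 177.86 and 184.42 at 4 h to 307.25, 309.66 and 307.13 at 6 h, 1.73-fold in mean value (log2 difference 0.79 ± 0.041 SE, limma adjusted p = 8.13e-07). Rank 18 went from 53.41, 50.84 and 51.03 to 86.33, 85.55 and 83.15, 1.64-fold (limma adjusted p = 0.000451). Rank 15 went from 66.26, 64.36 and 64.69 to 104.87, 105.06 and 96.41, 1.57-fold (limma adjusted p = 0.00211). In all of these the 6 h libraries lay above every 4 h library.

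Small differences passed the test where libraries lay close. Rank 21, an abundant transcript before exposure too, had 812.64, 812.32 and 806.20 at 4 h and 999.77, 1005.06 and 994.70 at 6 h, 1.23-fold apart (log2 difference 0.30 ± 0.021 SE, limma adjusted p = 6.3e-06). The smallest difference that passed was that of rank 43, from 109.93, 109.43 and 111.48 to 124.94, 125.94 and 118.00 (log2 difference 0.16 ± 0.041 SE, limma adjusted p = 0.0368). This call held in 12 of the 20 fits that were run, the reported one included, and was lost without any single 4 h library or without replicate 1 or 2 of UV6 (limma adjusted p = 0.0794 to 0.122). That of rank 19 held in 9 and was lost without any single library of 4 or 6 h, or replicate 3 of UV2. Ranks 40 and 42 lost theirs without replicate 1 or 2 of UV4 or replicate 2 of UV6, and rank 42 also without replicate 3 of UV6. The same 9 of the 14 genes were called higher in every one of the 20 fits.

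The 2 members that fell between 4 and 6 h remained far above their start. CTI12_AA110000, rank 16, had 13.50, 14.74 and 12.87 at 0 h, 85.56, 91.89 and 83.98 at 2 h, 240.23, 243.16 and 248.61 at 4 h, and 187.50, 191.09 and 208.24 at 6 h. The 6 h libraries all lay below those at 4 h, with a log2 difference of -0.32 ± 0.056 (SE; limma adjusted p = 0.00421; 0.00226 to 0.0307 over the alternatives), and the mean was still 14.3-fold above 0 h. CTI12_AA089970, rank 34, had 14.71, 16.43 and 14.27 at 0 h and 37.49, 33.85 and 36.35 at 2 h. It stood at 136.14, 143.01 and 142.20 at 4 h and at 116.45, 111.81 and 112.25 at 6 h, again without overlap (log2 difference -0.30 ± 0.055 SE, limma adjusted p = 0.00497; 0.00203 to 0.0322 over the alternatives).

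**Figure D4:**
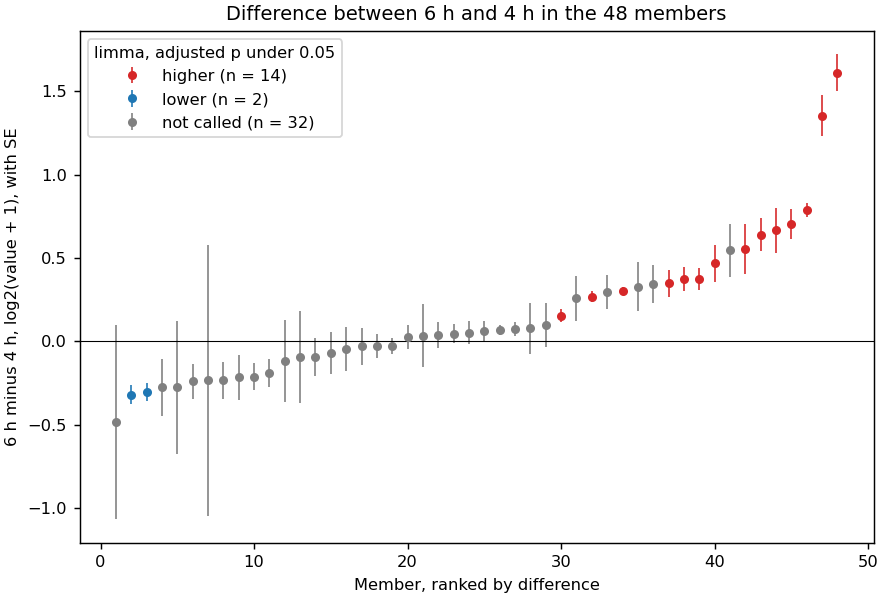
The y axis gives the difference between 6 h and 4 h in log2(value + 1) for each of the 48 members, ranked along the x axis, with bars of 1 standard error from the limma model of all 12 libraries. Red points (14) were called higher, blue points (2) lower and grey points (32) neither; the lowest point, at -0.48, has a wide bar.

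Among the 32 members that did not pass the test, 15 were higher and 17 lower in level at 6 h, and 17 lay within 0.1 of no difference on the log2(value + 1) scale. Their standard errors ran from 0.029 to 0.813 with a median of 0.114, so differences well above 0.1 could go uncalled in many of them. The lowest difference of all, -0.48 ± 0.584 (SE), belongs to rank 5, with 160.67, 159.58 and 160.37 at 4 h and 103.59, 124.68 and 115.46 at 6 h (limma adjusted p = 0.69). Its libraries did not overlap, and it was called lower without replicate 2 of UV0, the library listed at 0 (limma adjusted p = 0.0134). A model of the 4 h and 6 h libraries alone called it too (limma adjusted p = 0.0065), and 5 members lower in place of 2. Every 6 h library lay above every 4 h library in 22 members, as in 12.7% of tested genes, and below in 11, as in 16.5%.

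The calls between 4 and 6 h were also counted by the size of the first step. Of the 17 with a first step of at least 2, 2 were called higher at 6 h than at 4 h, 1 lower and 14 neither, with a median difference of -0.04. The 31 with a smaller first step had 12 called higher and 1 lower, and a median difference of 0.26. Called higher were 4.44% of all tested genes and 13.1% of the 1554 other genes with a first step of at least 1. This split of the members was made after the values were seen and was not tested. The first step and the later difference share no libraries. Across the 48 members they correlated at r = -0.24 (rho = -0.26), and at -0.10 without the 2 members of most extreme first step. Across the 1554 other genes r was 0.01 (rho = -0.05).

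Summed over the 48 genes, the members came to hold about 1% of the listed signal. Their share of the library total was 0.0857%, 0.0831% and 0.0774% at 0 h and 0.339%, 0.347% and 0.340% at 2 h. The 4 h libraries gave 0.993%, 1.01% and 1.02%, and those at 6 h gave 1.09%, 1.09% and 1.10%. All libraries of a later harvest stood above all of the one before, which the choice of members fixes from 0 to 4 h. From 4 to 6 h the choice does not fix it but limits a fall. Each member had to stand at least 1 higher at 6 h than at 2 h on the log2(value + 1) scale. CTI12_AA197370 and CTI12_AA270950 together made up 18.1% ± 3.58 (SD, n = 3) of the members' sum at 0 h and 34.4% ± 0.785 at 6 h. Without them the members' share went from 0.0671% ± 0.00139 at 0 h to 0.630% ± 0.00289 at 4 h, and it reached 0.718% ± 0.00796 by 6 h.

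**Figure D5:**
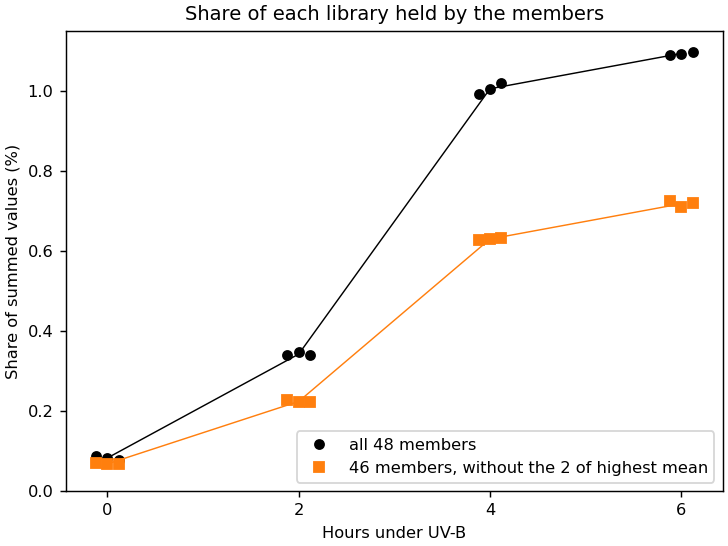
The y axis gives the percent of each library's summed values held by the members and the x axis the hours under UV-B; points are libraries and lines join the means of 3. Black circles cover all 48 members and orange squares the 46 without the 2 of highest mean; the former reach 1.09% to 1.10% at 6 h.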

How the data were processed

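Leaf RNA of 12 libraries, 3 per harvest, was analysed from the table the authors deposited, a normalised expression signal for 63226 identifiers, rounded to 2 decimals. Its header names no unit; its values resemble TPM or FPKM, and no count was recovered. Tools named in the submitters' processing notes, with no role given, are Salmon, DESeq and HISAT2 2.1.0; genome build and annotation are not given in the sources used here. Columns carry harvest and replicate as in the sample titles.

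Members and comparisons were chosen with earlier results of these data known. Values were taken as log2(value + 1), which understates changes of low genes. One limma model (limma 3.58.1, R 4.3.3; trend and robust estimation; 4 groups, no replicate term) covered the 25841 genes at 1 or more in at least 3 libraries, with Benjamini-Hochberg adjustment over all of them and a threshold of 0.05; it was tested on simulated data. Printed identifiers are the members of largest rise and highest mean and the 2 with the largest called falls from 4 to 6 h; ranks were singled out after their values were seen.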

Additional observations from a re-analysis of the deposited data

Results flagged for a closer look

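Levels at 4 h and 6 h differed, by the limma test of that difference itself, in part of the 48 members. Of these, 14 (29.2%) were higher at 6 h, with log2 differences of 0.16 to 1.61, where 4.44% of all tested genes were called higher. Another 2 (4.17%) were lower, by -0.32 and -0.30, where 5.47% of all tested genes were called lower. The share called lower is near that of all tested genes, and nothing is read from it. The rule also limits how far a member could fall. No harvest has the 4 libraries that a check for single outlying libraries would need.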

How the results depend on the processing

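Which genes are members depends on the rule's scale. The 48 became 30 with a pseudocount of 5 (20 of them shared with the 48), 47 with one of 0.1 (39 shared), 33 after median-ratio scaling of the libraries (30 shared) and 50 with the log2 of mean values (48 shared). A minimum step of 0.8 gave 115, one of 1.5 gave 12, and no minimum level at 0 h gave 87. Leaving out 1 library, or all of 1 replicate number, gave 41 to 54. With the members held fixed, the 14 called higher at 6 h than at 4 h became 9 without the filter on low values, where 63226 genes share the adjustment, and 2 with a minimum log2 difference of 1. The 2 called lower became 5 in a model of only the 4 h and 6 h libraries and 0 with that minimum in limma, where no member at an unadjusted p under 0.05 fell that far. The rule lets only the 7 members with a second step of at least 2 fall by that much. Without each library in turn the numbers called higher and lower were 10 to 15 and 2 to 3. Same-numbered libraries of different harvests did not deviate together (0 of 18 correlations over 0.1; 7 of 36 best matches had the same number), and a replicate block gave 12 and 2. The median difference of 0.0563 was 0.0718 after median-ratio scaling and 0.0520 to 0.0685 without each library. Over the 3 left-out replicate numbers, 66.4% of the chosen genes kept all 3 steps (59.3% to 71.4%), and 77.2% with a pseudocount of 5. In these pooled shares a gene chosen more than 1 time was counted each time. Read depth is unknown, so no counting limit can be given for low values.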

Other observations

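Identifier numbers of 4 pairs of members lay within 200 of each other, where neighbouring listed genes are usually 10 apart and neighbouring members had a median distance of 10820. The pairs were ranks 42 and 45, with 6 listed genes between them, ranks 4 and 35 (18 between), ranks 16 and 30 (8 between) and ranks 10 and 21 (4 between). In no pair did both members share the same call between 4 and 6 h. Whether these numbers follow position in the genome is not given by the table, and the pairs were noticed after the members were listed.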
